A study of Homo sapiens with 6 samples.

Results

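The A, B, D and E cyclins of dividing human cells were followed here through 8 genes: CCNA2, CCNB1, CCNB2, CCND1, CCND2, CCND3, CCNE1 and CCNE2. They were taken by gene name: every probe set whose only gene symbol in the platform annotation was 1 of these names was used, which gave 108 of the 1411399 probe sets of the array. The 8 genes had no probe sets that the annotation shared with another gene. After a filter on dim probe sets, 98 of the 108 were used, between 6 for CCND2 and 15 for CCNE2, and all 8 genes were among the 17841 tested.

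Cyclins are regulatory subunits that bind and activate cyclin-dependent kinases (CDKs), and each type is made and destroyed at its own stage of the cell cycle. D cyclins act with CDK4 and CDK6 in G1, where they begin to inactivate the retinoblastoma protein RB; E cyclins act with CDK2 at the entry into S phase, cyclin A2 with CDK2 and CDK1 through S and G2, and B cyclins with CDK1 at mitosis. Transcription of the E cyclins and of cyclin A2 depends on E2F factors, that of cyclin A2 and the B cyclins on later-acting complexes with MYBL2 and FOXM1, and that of cyclin D1 mostly on growth-factor signals. When p53 is active it induces CDKN1A, the CDK inhibitor p21, and many cell-cycle genes are then repressed through RB-like proteins.

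RNA came from HCT116, an established colorectal carcinoma cell line listed as +/+ in the sample titles, and was hybridised to Affymetrix Human Exon 1.0 ST arrays after 12 h of treatment. There were 2 arrays of controls, 2 of Nutlin-3, which keeps MDM2 from binding p53, and 2 of 5-fluorouracil (5FU), a pyrimidine analogue whose metabolites inhibit thymidylate synthase. The treatment label of the controls is none, whereas the series' design text names DMSO; Nutlin 3R in the labels is Nutlin-3 in that text, and the 2 sources also name different RNA kits. No dose is given in the sources used here, and nothing says that replicates were separate cultures, so p-values measure only the spread between these arrays, which may be technical.

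A gene's level is the mean of the deposited log2 values of its used probe sets, so a difference of 1 is a 2-fold change, and levels of different genes cannot be ranked because probes differ in brightness. Genes were called in limma at a Benjamini-Hochberg adjusted p below 0.05 over all 17841 genes. Array medians lay between 4.73 and 4.78 and correlations between arrays over genes between 0.92 and 0.981. CDKN1A was 4.27-fold higher after Nutlin-3 and 3.43-fold higher after 5FU than in control, and MDM2 was 3.63-fold and 2.96-fold higher, all called. As a rough guide to the cell type, since probes differ in brightness, all 17 epithelial markers were measured, 11 had a signal above that of the median gene, and 0 were called in any comparison (limma; 0 to 2 per direction at an unadjusted p below 0.05). The same held for 2 of 13 measured fibroblast markers and 1 of 13 blood cell markers; the mean of the fibroblast list ranged from 6.25 to 6.46 over the arrays and that of the blood list from 6.27 to 6.57. ACTA2, which encodes smooth muscle actin, was the 1 fibroblast marker called, higher after either drug. Its call after Nutlin-3 was lost without control replicate 1. Its call after 5FU was lost without any 1 of the control or 5FU arrays, with the median of probe sets and with arrays centred on their medians.

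After Nutlin-3 both E cyclins and cyclin A2 fell, by 7.98-fold for CCNE2, 3.62-fold for CCNA2 and 2.43-fold for CCNE1, while the 2 B cyclins were 2.3-fold and 2.45-fold below control without passing the threshold. After 5FU the same B cyclins had nearly the same shortfall, 2.3-fold and 2.11-fold, CCNA2 was 1.15-fold below control, CCNE1 1.25-fold above it and CCNE2 2.9-fold above it; none of these passed. The D cyclins differed from control by at most 1.22-fold after either drug. In limma 3 of 8 cyclins were called lower for Nutlin-3 against control, where 0.858% of all genes were, 0 of 8 where 5FU was compared with control (0.448% of all genes called in either direction), and 3 of 8 lower for Nutlin-3 against 5FU, where 0.572% were. At an unadjusted p below 0.05 the counts were 5, 3 and 4 of 8, against 10.2%, 10.7% and 13.3% of all genes. In bulk RNA a change in the share of cells at a given cell-cycle stage and a change in transcript per cell cannot be told apart.

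**Figure D1:**
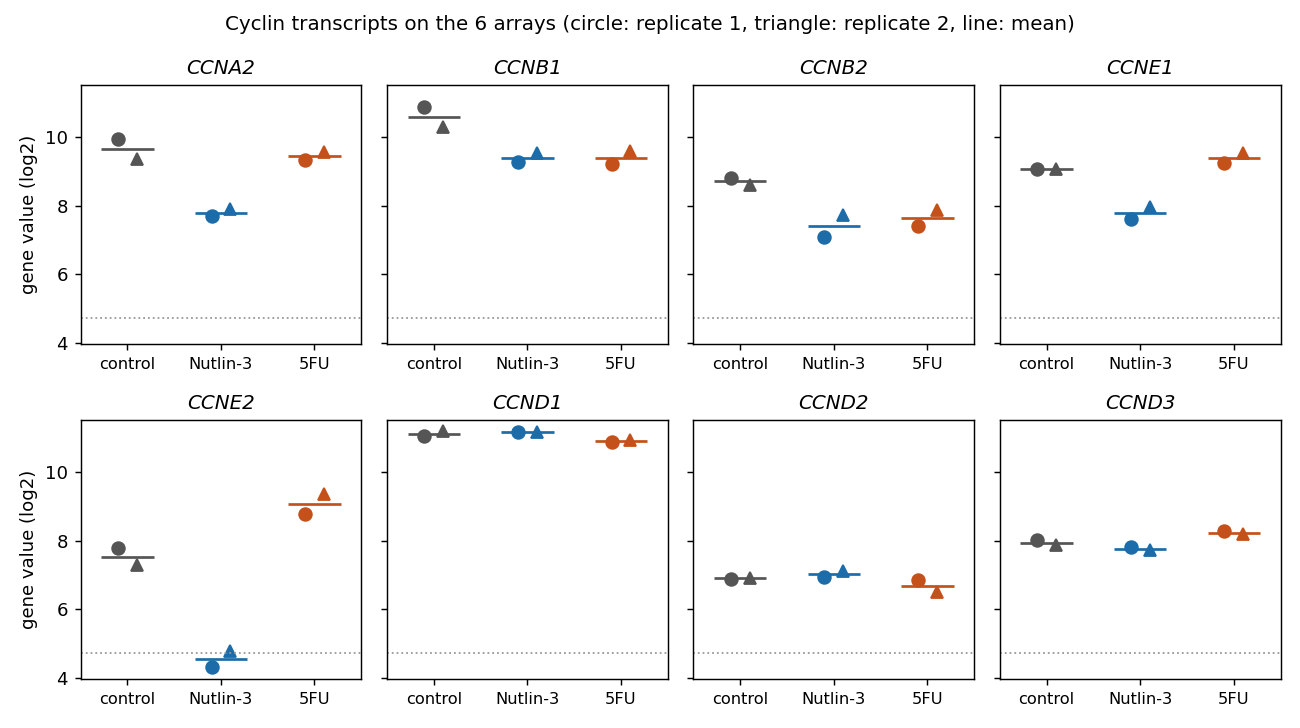
Levels of the 8 cyclin genes (mean log2 value of a gene's used probe sets) on each of the 6 arrays, with the group mean as a line and the probe-set filter of 4.73 as a dotted line. CCNE2 spans from 4.30 on a Nutlin-3 array to 9.36 on a 5FU array, whereas CCND1 stays between 10.89 and 11.19.

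Promoters are shown for the A, B and E cyclins that RefSeq's table holds, because these types had the largest differences between groups. The table (GRCh38.p14) gave promoter windows for 5 of the 8 genes, with 3 windows for CCND3. The 250 bases before the annotated start are printed in the direction of transcription for CCNA2 (chr4:121823884-121824133, minus strand), CCNB1 (chr5:69166900-69167149, plus strand), CCNB2 (chr15:59104896-59105145, plus strand) and CCNE1 (chr19:29811741-29811990, plus strand). Capitals mark CCAAT on either strand, the word bound by the factor NF-Y, and forms of the cell-cycle genes homology region, CHR, a short element of many late cell-cycle promoters, with TTTGAA or TTCGAA or TTTAAA or CTTGAA searched on both strands.
CCNA2: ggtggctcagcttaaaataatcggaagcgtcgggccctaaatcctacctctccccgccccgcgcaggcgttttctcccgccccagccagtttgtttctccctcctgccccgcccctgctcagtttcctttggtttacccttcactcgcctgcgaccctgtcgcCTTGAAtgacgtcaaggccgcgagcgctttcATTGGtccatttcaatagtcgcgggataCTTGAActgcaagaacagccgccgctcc
CCNB1: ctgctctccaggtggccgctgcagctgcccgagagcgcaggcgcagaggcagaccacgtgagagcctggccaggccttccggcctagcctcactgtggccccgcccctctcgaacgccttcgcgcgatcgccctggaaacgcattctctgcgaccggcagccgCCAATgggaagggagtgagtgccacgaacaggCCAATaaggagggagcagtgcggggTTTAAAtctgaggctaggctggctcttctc
CCNB2: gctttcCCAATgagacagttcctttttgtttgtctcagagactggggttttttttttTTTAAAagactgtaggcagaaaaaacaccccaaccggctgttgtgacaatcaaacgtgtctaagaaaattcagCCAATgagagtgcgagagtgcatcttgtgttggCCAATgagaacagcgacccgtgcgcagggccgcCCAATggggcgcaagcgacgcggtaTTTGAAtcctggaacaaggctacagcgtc
CCNE1: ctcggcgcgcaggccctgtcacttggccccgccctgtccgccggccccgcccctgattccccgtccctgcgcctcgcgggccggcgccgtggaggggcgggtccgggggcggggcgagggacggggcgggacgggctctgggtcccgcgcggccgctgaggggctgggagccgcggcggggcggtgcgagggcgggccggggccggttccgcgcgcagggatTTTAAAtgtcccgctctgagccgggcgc

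All 4 windows held a CHR word that began within 30 bases of the start, as did 3.35% of all windows: CTTGAA at 28 to 23 bases before it in CCNA2, TTTAAA at 30 to 25 in CCNB1 and at 28 to 23 in CCNE1, and TTTGAA at 29 to 24 in CCNB2. The limit of 30 bases equals the distance of the farthest of these words, that of CCNB1, so the share of 3.35% is no test of them. CCNA2 had a further CTTGAA at 87 to 82 and CCNB2 a further TTTAAA at 193 to 188. CCAAT occurred 4 times in CCNB2, 2 times in CCNB1, 1 time in CCNA2, where it lies on the opposite strand, and 0 times in CCNE1. In both B cyclin windows a CCAAT began 87 bases before the start, with the next at 55 in CCNB1 and at 54 in CCNB2. Of the 3 CCND3 windows 2 held a CCAAT and 0 held a CHR word. E2F words, searched on both strands as TTTCCCGC or TTTCGCGC or TTTGCCGC or TTTGGCGC, were in 0 of the 7 windows of these cyclins. Only these exact words were searched, so other forms of an E2F site would not be found. Over 35116 RefSeq windows of the same length, 32% held CCAAT, 29.1% a CHR word and 2.79% an E2F word. These are matches of letters in windows picked with the genes' values known, and no binding was measured.

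CCNE2, which encodes cyclin E2, had the widest range of the 8 genes. Its level was 7.78 and 7.28 on the control arrays, 4.30 and 4.76 on the Nutlin-3 arrays and 8.77 and 9.36 on the 5FU arrays. The 3 groups did not overlap, with both Nutlin-3 arrays far below control and both 5FU arrays above it. CCNE2 fell after Nutlin-3 (log2 difference -3.0, 95% interval -3.63 to -2.36, limma adjusted p = 0.00861), an absolute difference of rank 2 among the 17841 genes. Against 5FU the Nutlin-3 level was 23.1-fold lower (log2 difference -4.53, interval -5.17 to -3.89, adjusted p = 0.00502), and this was the largest absolute difference of all genes tested (rank 1). For 5FU against control the log2 difference was 1.54 (interval 0.90 to 2.17), which missed the threshold at an adjusted p of 0.0927. The Nutlin-3 mean of 4.53 ± 0.33 (SD, n = 2) lay below the probe-set filter, as did 9 of the 15 used probe sets in that group. The measured fold there may be limited by the dim end of the array, which was not tested. Without control replicate 1 the difference between Nutlin-3 and control was -2.75 and lost its call (adjusted p = 0.0553).

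CCNE1, which encodes cyclin E1, was lower after Nutlin-3 by less than its paralog. It stood at 9.09 and 9.07 in control, 7.62 and 7.97 after Nutlin-3 and 9.26 and 9.54 after 5FU. The order of the groups was the one seen for CCNE2, with no overlap between any of the 3. The fall after Nutlin-3 was -1.28 on the log2 scale (interval -1.69 to -0.88, limma adjusted p = 0.023), and Nutlin-3 was 3.04-fold below 5FU (log2 difference -1.61, interval -2.01 to -1.20, adjusted p = 0.0191). The difference between 5FU and control was 0.32 (interval -0.09 to 0.73, adjusted p = 0.612), so these neighbours in the order did not differ beyond their spread. The call against control was lost when control replicate 1 (-1.27, adjusted p = 0.137), control replicate 2 (-1.29, 0.0858) or the first Nutlin-3 array (-1.11, 0.11) was left out, and the call against 5FU without Nutlin-3 replicate 1 (-1.43, 0.089), 5FU replicate 1 (-1.75, 0.0618) or 5FU replicate 2 (-1.46, 0.17).

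CCNA2, the cyclin of S and G2 phase, fell after Nutlin-3 and stayed near control after 5FU. Control levels were 9.95 and 9.36, Nutlin-3 levels 7.69 and 7.91, and 5FU levels 9.34 and 9.58. The Nutlin-3 arrays lay below all 4 others, while the 5FU arrays overlapped the control range. The log2 difference was -1.86 for Nutlin-3 against control (interval -2.37 to -1.34, limma adjusted p = 0.0158) and -1.66 for Nutlin-3 against 5FU (interval -2.17 to -1.14, adjusted p = 0.0342). For 5FU against control it was -0.20 (interval -0.71 to 0.32, adjusted p = 0.887), and it turned to 0.10 without control replicate 1. The call against control was lost without control replicate 1 (-1.56, adjusted p = 0.0651) or Nutlin-3 replicate 1 (-1.75, 0.0799). The call against 5FU was lost when any 1 of the 4 arrays compared was left out (adjusted p = 0.171 without Nutlin-3 replicate 1, 0.0623 without Nutlin-3 replicate 2, 0.113 without 5FU replicate 1 and 0.294 without 5FU replicate 2), with arrays centred on their medians (0.0732) and with the median of probe sets (0.0544).

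The B cyclins, which carry CDK1 into mitosis, had similar levels after the 2 drugs. CCNB1 was at 10.90 and 10.32 in control, 9.28 and 9.54 after Nutlin-3 and 9.22 and 9.60 after 5FU. CCNB2 was at 8.82 and 8.61 in control, 7.09 and 7.74 after Nutlin-3 and 7.40 and 7.88 after 5FU. In both genes all 4 drug arrays lay below both control arrays, and the arrays of the 2 drugs interleaved. Groups did not overlap for 7 of 8 cyclins in Nutlin-3 against control, 7 of 8 in 5FU against control and 6 of 8 in Nutlin-3 against 5FU, against 34.2%, 38% and 46% of all genes.

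For CCNB1 the log2 difference from control was -1.20 after either drug (Nutlin-3: interval -1.75 to -0.65, limma adjusted p = 0.0758; 5FU: interval -1.75 to -0.65, adjusted p = 0.114). For CCNB2 it was -1.30 after Nutlin-3 (interval -1.90 to -0.69, adjusted p = 0.079) and -1.07 after 5FU (interval -1.67 to -0.47, adjusted p = 0.183). None of the 4 passed; CCNB2 passed for Nutlin-3 without Nutlin-3 replicate 2 (-1.62, adjusted p = 0.0458), and further settings in which the B cyclins passed are given with the processing alternatives. Both comparisons share the 2 control arrays. Compared directly, Nutlin-3 and 5FU differed by -0.0028 for CCNB1 (interval -0.55 to 0.55) and by -0.22 for CCNB2 (interval -0.82 to 0.38). These intervals do not show that the drugs gave equal levels.

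The D cyclins, which couple growth signals to the cell cycle, had no call in the 3 comparisons as fitted here; the crossed replicate block under the processing alternatives gave 1. CCND1 was at 11.05 and 11.19 in control, 11.17 and 11.18 after Nutlin-3 and 10.89 and 10.93 after 5FU. The 5FU arrays were the lowest, and control and Nutlin-3 overlapped. The differences were 0.053 for Nutlin-3 against control (interval -0.25 to 0.36), -0.21 for 5FU against control (-0.52 to 0.09) and 0.27 for Nutlin-3 against 5FU (-0.04 to 0.57), with limma adjusted p-values of 0.957, 0.677 and 0.447.

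CCND2 was at 6.89 and 6.90 in control, 6.93 and 7.10 after Nutlin-3 and 6.84 and 6.49 after 5FU. It rests on 6 of 11 probe sets, the other 5 being below the filter. Only probe set 3401715 was bright, with a mean of 11.9 over the arrays, while the other 5 used probe sets had means from 5.07 to 6.92. The differences were 0.12, -0.23 and 0.35 in the same order of comparisons, with intervals of -0.26 to 0.50, -0.61 to 0.15 and -0.03 to 0.73.

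CCND3 was at 8.01 and 7.87 in control, 7.81 and 7.73 after Nutlin-3 and 8.28 and 8.18 after 5FU. The groups did not overlap, in the order 5FU, control, Nutlin-3. Its Nutlin-3 level was -0.46 from its 5FU level (interval -0.78 to -0.15, adjusted p = 0.212), which is the same order of groups as for the E cyclins at a smaller size. Against control the differences were -0.17 (interval -0.49 to 0.15) and 0.29 (interval -0.02 to 0.61). Its 13 used probe sets were not uniform. For Nutlin-3 against 5FU 10 were lower and 3 higher, from -1.31 to 0.37. Against control 9 were lower and 4 higher after Nutlin-3, and all 13 were higher after 5FU.

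**Figure D2:**
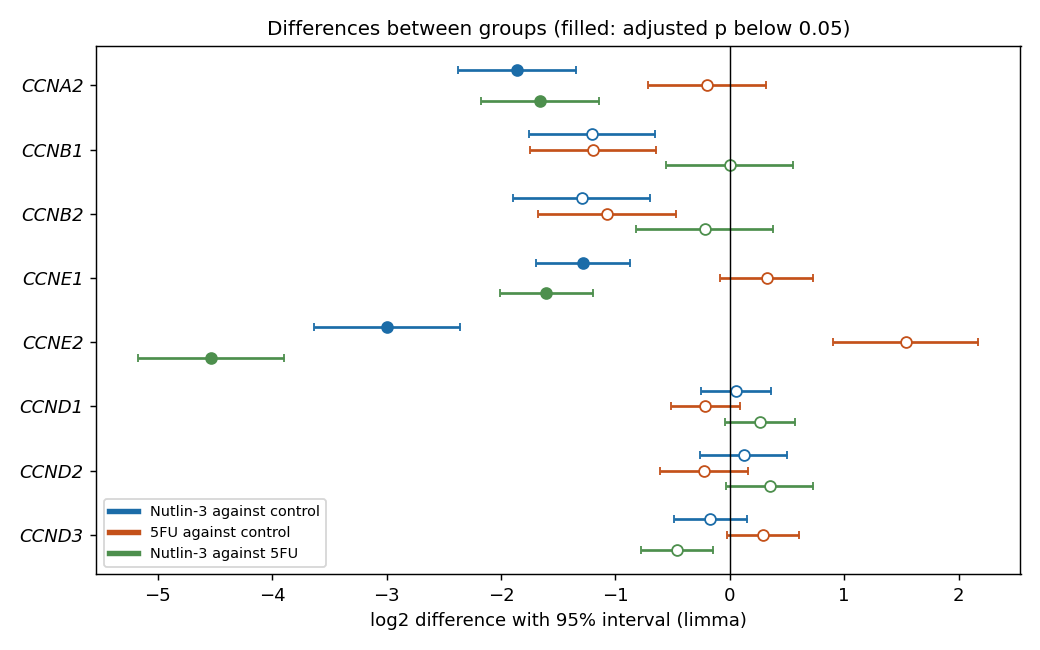
Log2 differences of the 8 cyclins for the 3 comparisons, with limma's 95% intervals; filled points have an adjusted p below 0.05. CCNE2, CCNE1 and CCNA2 are filled for Nutlin-3 against control and against 5FU, and no point is filled for 5FU against control.

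Ratios within an array show whether cyclins of 1 type changed unequally. The log2 value of CCNE1 minus that of CCNE2 was 1.31 and 1.79 in control, 3.32 and 3.21 after Nutlin-3 and 0.489 and 0.184 after 5FU. The groups stood apart, and the ratio differed from control by 1.71 after Nutlin-3 and by -1.21 after 5FU. For CCNB1 and CCNB2 the ratio overlapped between all groups, with differences of 0.093, -0.13 and 0.22 in Nutlin-3 against control, 5FU against control and Nutlin-3 against 5FU. The ratio of CCND1 to CCND3 was 0.73 higher after Nutlin-3 than after 5FU, and that of CCND2 to CCND3 0.81 higher, again without overlap. For groups of 2 the smallest p of a two-sided exact permutation test is 0.333, the value of the 9 ratios without overlap among 15 tested (Benjamini-Hochberg adjusted 0.556), so no ratio could pass this test, and no other test of the ratios was run.

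**Figure D3:**
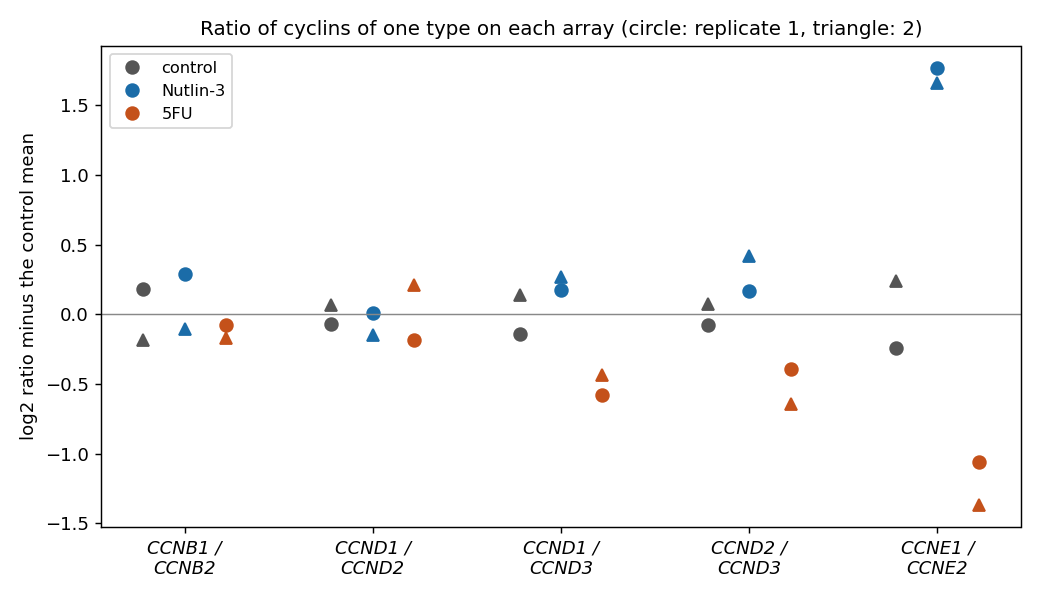
Log2 ratio of 2 cyclins of 1 type on each array, minus the mean of the 2 control arrays, for 5 pairs. The ratio of CCNE1 to CCNE2 is above control on both Nutlin-3 arrays and below it on both 5FU arrays, while that of CCNB1 to CCNB2 mixes the groups.

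Single probe sets show how far a gene's value speaks for the whole transcript. In CCNB1 all 14 used probe sets were lower than control after Nutlin-3 and after 5FU, with no overlap of arrays in any of them. Of all 705699 used probe sets, 15% were lower without overlap after Nutlin-3, and 17.6% after 5FU. In CCNB2 all 12 were lower after either drug, 12 without overlap for Nutlin-3 and 11 for 5FU. In CCNA2 all 12 were lower after Nutlin-3 without overlap, with differences from -3.03 to -0.39 and a median of -1.96, and 3 of 12 were lower without overlap after 5FU, a share near that of all probe sets. Limma at the level of single probe sets called 0 of 705699 for either drug against control (0% of all; 6.14% and 6.27% at an unadjusted p below 0.05), so these are counts of direction.

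Of the 15 used probe sets of CCNE2, 14 were lower after Nutlin-3 and 14 higher after 5FU, each without overlap, where 15% and 17.6% of all used probe sets were. The differences ran from -4.54 to 0.04 with a median of -3.32 after Nutlin-3, and from -0.16 to 2.08 with a median of 1.68 after 5FU. For Nutlin-3 against 5FU limma called 10 of 705699 probe sets (0.00142%), and 4 of these 10 belonged to CCNE2. Probe set 3145117 showed the pattern at 7.14 and 6.41 in control, 2.32 and 3.05 after Nutlin-3 and 8.36 and 9.02 after 5FU. Both Nutlin-3 values of this probe set were below the filter of 4.73. The filter took the mean over all arrays, so high 5FU values helped dim probe sets of CCNE2 to pass. Probe set 3145119 passed with a mean of 4.78, from group means of 5.20 in control, 1.89 after Nutlin-3 and 7.26 after 5FU. The part of the filter in these counts was not tested.

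In the E, A and B cyclins some probe sets at or near 1 end of the numbering differed less from control after Nutlin-3 than the gene's median. Probe set 3145132, the highest-numbered of CCNE2, was at 7.51 and 6.92 in control, 7.44 and 7.06 after Nutlin-3 and 7.19 and 6.93 after 5FU, with all groups overlapping. Its neighbour in use, 3145126, differed by -0.33 after Nutlin-3 and by 0.62 after 5FU. The lowest-numbered probe set of CCNE1, 3828127, was 0.18 above control after Nutlin-3 and -0.37 from it after 5FU, against medians of -1.43 and 0.36 for the gene. In CCNA2 the next to highest-numbered, 2784129, differed by -0.39 after Nutlin-3, and the highest-numbered, 2784130, by -0.86, against a median of -1.96. The lowest-numbered of CCNB1, 2813417 and 2813418, differed by -0.76 and -0.38 after Nutlin-3, against a median of -1.23. Those of CCNB2, 3595980 and 3595981, differed by -0.57 and -0.42, against a median of -1.34. These probe sets were picked after their values were seen, the position of probe sets in the transcripts is not given in the sources used here, and their part in the gene values was not tested. In the RefSeq gene table CCNA2 overlaps EXOSC9, CCNE2 overlaps INTS8 and NDUFAF6, and CCNB1 overlaps LOC124901203, a small nucleolar RNA gene. No overlapping gene is listed for CCNE1 or CCNB2. Where the overlaps lie was not examined, and their part in the values of these probe sets was not tested.

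**Figure D4:**
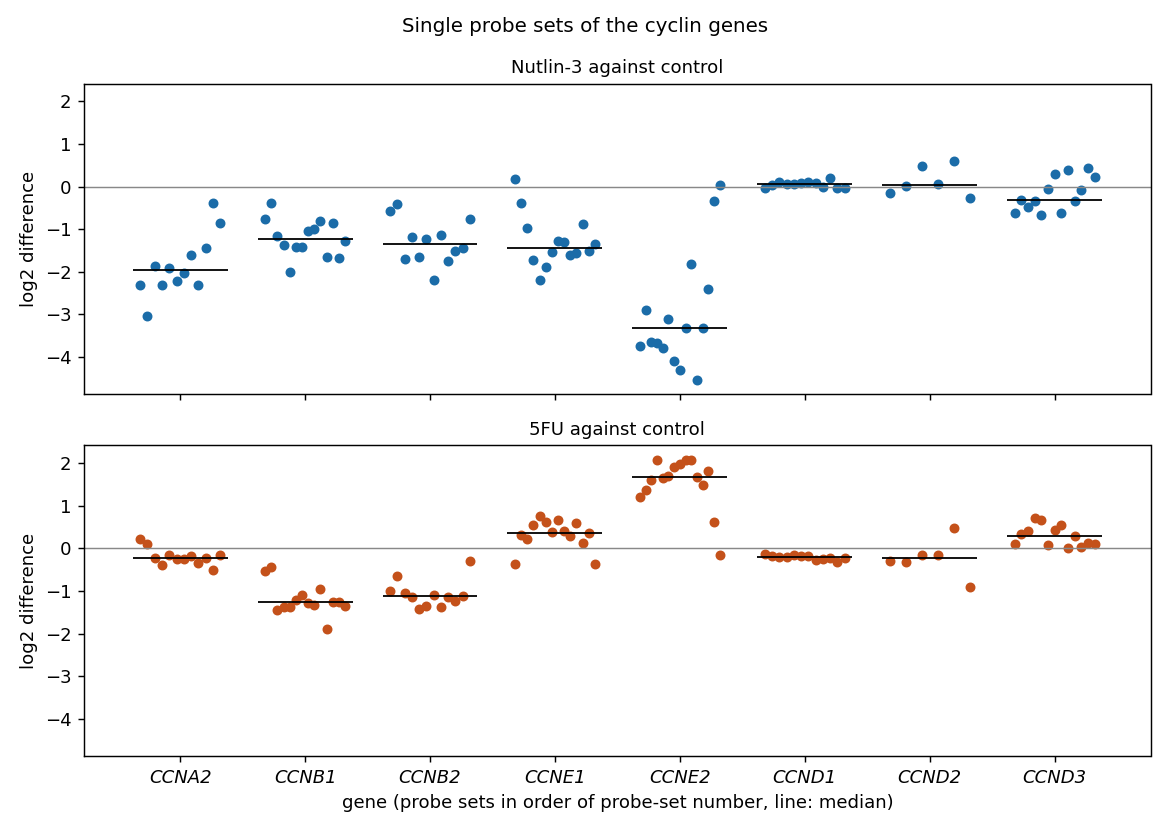
Log2 difference from control of each used probe set, in order of probe-set number within a gene, after Nutlin-3 (upper panel) and after 5FU (lower panel); lines are medians. CCNE2 has a median of -3.32 after Nutlin-3 and 1.68 after 5FU with a few probe sets near 0, and all probe sets of CCNB1 and CCNB2 lie below 0 in both panels.

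Genes that act on these cyclins, and 1 cyclin of another type, were also called after Nutlin-3. In 5 lists, of which 4 hold partners and regulators and 1 holds other cyclins, with 87 different measured genes in all, limma called 12 lower and 1 higher for Nutlin-3 against control (14.9%, where 1.22% of all genes were called), 1 lower and 1 higher for 5FU against control (2.3%, against 0.448%), and 8 lower and 0 higher for Nutlin-3 against 5FU (9.2%, against 0.633%). The medians of these genes were -0.23, -0.0023 and -0.22, and those of all genes 0.00062, 0.0014 and -0.0052. The lists were drawn up with earlier results of these data known. Without control replicate 1 the count for Nutlin-3 against control was 0 lower and 1 higher, without Nutlin-3 replicate 1 it was 2 and 1, and without control replicate 2 it was 7 and 1. For Nutlin-3 against 5FU the count was 1 lower without Nutlin-3 replicate 1, 4 without Nutlin-3 replicate 2, 2 without 5FU replicate 1 and 1 without 5FU replicate 2.

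Among partner kinases and their activators 2 of 12 fell after Nutlin-3 and 0 rose, with a list median of -0.53. CDK2, the kinase that cyclins E and A bind, fell from 9.66 ± 0.03 (SD, n = 2) to 8.47 ± 0.21, a log2 difference of -1.20 (limma adjusted p = 0.0246), and was -1.64 from its 5FU level (adjusted p = 0.0164). CDC25A, the phosphatase that activates CDK2, fell from 8.29 ± 0.36 to 6.28 ± 0.18, by -2.01 (adjusted p = 0.0099), and was -2.42 from 5FU (adjusted p = 0.00944). The CDK2 call against control was lost without control replicate 1, control replicate 2 or Nutlin-3 replicate 1. Its call against 5FU was lost without Nutlin-3 replicate 1, 5FU replicate 1 or 5FU replicate 2. The CDC25A call against control was lost without control replicate 1 or Nutlin-3 replicate 1. Its call against 5FU was lost without Nutlin-3 replicate 1 or 5FU replicate 2. After 5FU 0 of 12 were called, with a median of 0.0066. CDK1 was not analysed here.

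Of 9 CDK inhibitors and inhibitory kinases CDKN1A rose after both drugs, and WEE1, which phosphorylates and restrains CDK1, fell after Nutlin-3 from 7.84 ± 0.03 to 6.56 ± 0.24 (log2 difference -1.27, adjusted p = 0.0236). The WEE1 call was lost without control replicate 1, control replicate 2 or Nutlin-3 replicate 1. The CDKN1A call after 5FU was lost without any 1 of the control or 5FU arrays. None of the 9 was called for Nutlin-3 against 5FU in limma, with 3 lower and 1 higher at an unadjusted p below 0.05. The median of the list was -0.027 after Nutlin-3 and -0.024 after 5FU.

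Of 24 measured genes of cyclin turnover, 2 fell after Nutlin-3. CDC20, the activator of the anaphase-promoting complex that marks cyclin B for destruction, fell by -1.09 after Nutlin-3 (adjusted p = 0.0197) and by -0.99 after 5FU (adjusted p = 0.0451), the 1 gene of the 5 lists that fell after 5FU. FBXO5, an inhibitor of that complex, fell by -2.04 after Nutlin-3 (adjusted p = 0.0193) and was -2.03 from its 5FU level (adjusted p = 0.0315). Both FBXO5 calls were lost with all probe sets, and the second also with centred arrays. The FBXO5 call against control was also lost without control replicate 1 or Nutlin-3 replicate 1. Its call against 5FU was lost without any 1 of the Nutlin-3 or 5FU arrays. After Nutlin-3 the CDC20 call was lost without control replicate 1 or either Nutlin-3 array. The CDC20 call after 5FU was lost when any 1 of the 6 arrays was left out, and with trend and robust variances, all probe sets, the median of probe sets, centred arrays or only the 2 groups in the fit.

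Of 23 transcriptional regulators of cyclin genes 6 fell after Nutlin-3, 0 were called after 5FU and 4 were lower after Nutlin-3 than after 5FU. The largest falls were in E2F8, a repressor of the E2F family (log2 difference -2.09, adjusted p = 0.00729), RBL1, the RB-like protein p107 (-1.46, 0.0296), MYBL2, which activates late cell-cycle genes (-1.38, 0.0099), and the activator E2F2 (-1.28, 0.0183). Against 5FU the differences were -2.54 for E2F8 (adjusted p = 0.00502), -1.53 for MYBL2 (0.011), -1.49 for E2F2 (0.0191) and -1.28 for FOXM1, a factor for mitotic genes (0.0442). The FOXM1 call against 5FU was lost when any 1 of the 6 arrays was left out. Trend and robust variances, all probe sets, the median of probe sets, centred arrays or only the 2 groups in the fit also removed it. The RBL1 call was lost with centred arrays, and without control replicate 1, control replicate 2 or Nutlin-3 replicate 1. The E2F2 and MYBL2 calls of both comparisons and the E2F8 call against control were each lost with at least 1 array left out. The list medians were -0.51 for Nutlin-3 and 0.050 for 5FU, each against control, and -0.56 for Nutlin-3 against 5FU.

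The genes with the pattern most like each called cyclin were found among 16874 genes with at least 3 used probe sets, by the root mean square difference over the 6 arrays after each gene was centred on its mean. For CCNE1 they were CDK2 (0.0565), CHAF1B (0.0656) and GINS2 (0.0748), where the median gene was at 0.72. CDK2 stood at 9.64 and 9.68 in control, 8.32 and 8.62 after Nutlin-3 and 9.97 and 10.25 after 5FU. For CCNA2 they were HJURP (0.069), MTFR2 (0.0751) and STIL (0.0954), with a median of 0.867. HJURP stood at 9.05 and 8.62 in control, 6.87 and 7.04 after Nutlin-3 and 8.63 and 8.77 after 5FU. For CCNE2 the nearest were FAM111B at 0.593, DTL at 0.675 and EXO1 at 0.744, with a median of 1.9. The distance grows with the size of a gene's changes, which were largest in CCNE2 of the 3 cyclins. These distances are therefore not comparable with those for CCNE1 and CCNA2. FAM111B stood at 6.98 and 6.78 in control, 4.30 and 4.80 after Nutlin-3 and 7.51 and 7.81 after 5FU, and its 5FU arrays stood above control by less than those of CCNE2 did.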

How the data were processed

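Values were deposited by the authors as log2 expression per probe set, a summary by RMA per the submitters' processing notes, which give no version or settings. RMA subtracts background, brings arrays to 1 distribution and combines probes into probe sets. No batch is named in the labels, and the number of arrays limits the precision. The cyclins and the gene lists were chosen with earlier results of these data known.

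Probe sets with 1 gene symbol in the platform annotation were used if, averaged over arrays, they were brighter than the median probe set (4.73), and a gene needed at least 2. Symbols were updated through the RefSeq gene table of GRCh38.p14. The 3 groups were fitted in 1 model in limma 3.58.1 (R 4.3.3; lmFit and eBayes, 3 residual degrees of freedom), with Benjamini-Hochberg adjustment over 17841 genes. Named genes were all 8 cyclins, CDKN1A and MDM2, up to 4 called genes of each list and comparison with the largest change, every called gene among the other cyclins, and the 3 genes nearest in pattern to each called cyclin. In simulated data with independent noise for Nutlin-3 against control over the 17841 genes, 31% of 200 genes changed 2-fold and 90% of 200 changed 4-fold were found. Replicate differences on the real arrays correlated between groups, which the simulation left out, so its shares may not hold for these arrays. Alternatives were other variances, probe-set choices, summaries, scalings, groups in the fit, blocks and arrays left out.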

Additional observations from a re-analysis of the deposited data

How the results depend on the processing

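The 3 cyclins called for Nutlin-3 against control (CCNA2, CCNE1 and CCNE2) were also the 3 called with trend and robust variances, all probe sets of a gene, the median of probe sets, arrays centred on their medians and only the 2 groups in the fit. The count was 5 with upper-quartile probe sets alone and 5 with quantile normalization of gene values, where CCNB1 and CCNB2 joined. For 5FU against control the count of 0 became 1 with upper-quartile probe sets (CCNE2, higher) and 3 with quantile normalization (CCNB1 and CCNB2 lower, CCNE2 higher). With 1 array left out the count ranged from 0 to 4 for Nutlin-3 against control and from 1 to 3 for Nutlin-3 against 5FU, and was 0 throughout for 5FU against control; CCNE2 was called against 5FU in each of these fits.

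Equal replicate numbers were not taken to pair the samples, since nothing in the labels says that they share a culture or day. Replicate differences correlated over genes at -0.565 between control and Nutlin-3, -0.525 between control and 5FU and 0.634 between the drugs. The main fit has no term for this shared variation. With the replicate number as a replicate block the count was 0 in each comparison. With a crossed replicate block, chosen after the data were seen, it was 5, 3 and 4 (1 of the 4 a D cyclin) in Nutlin-3 against control, 5FU against control and Nutlin-3 against 5FU.

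Differences near 0 changed sign. For CCND2 it was -0.071 for Nutlin-3 against control with upper-quartile probe sets and 0.041 for 5FU against control with the median of probe sets. With 1 array left out, CCND1 ranged from -0.017 to 0.12 for Nutlin-3 against control, CCNA2 from -0.49 to 0.10 for 5FU against control, and, for Nutlin-3 against 5FU, CCNB1 from -0.19 to 0.19 and CCNB2 from -0.55 to 0.10. CCNB1 was at 0.17 there with quantile normalization. The ratio of CCND1 to CCND2 differed by -0.061 with all probe sets and -0.24 with the median for 5FU against control, and by 0.17 with the median for Nutlin-3 against 5FU. The cause was not tested.

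Over all genes 217, 80 and 113 were called in the 3 comparisons. The counts were 380, 151 and 234 with upper-quartile probe sets, 514, 242 and 416 with quantile normalization, 127, 14 and 37 with centred arrays, 2, 1 and 0 with the block, 1788, 1882 and 2821 with the crossed block, 39 for 5FU against control and 69 for Nutlin-3 against 5FU with the median of probe sets, and 69 for the latter with all probe sets. With 1 array left out they ranged from 5 to 149, 1 to 63 and 3 to 104. Quantile normalization moved the share of calls that were higher in Nutlin-3 than in 5FU from 9.73% to 24%.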

Other observations

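The other cyclins, which have other roles, had few calls. Of 20 measured, CCNF was the 1 called in limma in the model of all 3 groups without a block. It encodes cyclin F, a substrate receptor of a ubiquitin ligase. CCNF stood at 8.87 and 8.86 in control, 7.25 and 7.40 after Nutlin-3 and 8.34 and 8.46 after 5FU. Its Nutlin-3 arrays were the lowest and its 5FU arrays lay between those and control, without overlap. It fell by -1.54 after Nutlin-3 (adjusted p = 0.00788) and was -1.07 from its 5FU level (adjusted p = 0.031), and its difference between 5FU and control was -0.47 (adjusted p = 0.267). The call against control was lost without control replicate 1, and the call against 5FU without any 1 of the 4 arrays compared, with the median of probe sets and with centred arrays.

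CCNG1, which encodes cyclin G1 and is known as a target of p53, stood at 8.85 and 7.89 in control, 9.26 and 9.57 after Nutlin-3 and 9.04 and 9.48 after 5FU; it was named after its values were seen. All drug arrays were above control, but the control arrays lay about as far apart as the groups. The differences of 1.04 and 0.89 had limma adjusted p-values of 0.28 and 0.382. CCNG1 was called higher after Nutlin-3 with quantile normalization, and after either drug with the crossed replicate block. The median of the 20 cyclins was 0.051 after Nutlin-3 and 0.080 after 5FU, each against control, and 0.019 for Nutlin-3 against 5FU.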
